A study of Mus musculus with 5 samples.

Results

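The genes described here are 10 core members of hepatic insulin receptor signalling: Insr, Irs1, Irs2, Pik3r1, Pik3ca, Akt1, Akt2, Foxo1, Foxo3 and Grb10. Every probe that the array files name after one of these genes was taken, control spots aside, which gave 20 probes in 29 spots for 9 of the 10 genes, out of 41174 probes and 28631 gene names on the array. The files name no probe after Irs2, the second docking protein of the receptor, so Irs2 was not analysed here. Of the other 9 genes, 8 were measured above background on at least 1 array.

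Liver RNA of male C57BL/6J mice aged 25 weeks was hybridised to 5 one-colour microarrays, 1 for each group, and each array carried the pooled RNA of 5 mice. HFHFr stands for a diet high in fat and fructose. HFHFr-FA mice had 16 weeks of it and then 4 weeks of it supplemented with all-trans retinoic acid; the labels give this group as not insulin resistant but slightly steatotic. In HFHFr-NA the 16 weeks were followed by a normal diet supplemented with that compound for 4 weeks, and the labels call the mice recovered from insulin resistance. In HFHFr-N the last 4 weeks were normal diet alone, with mice labelled insulin resistant, and in HFHFr-F the HFHFr diet ran for 20 weeks, with mice labelled severely insulin resistant. The control mice were untreated. All-trans retinoic acid is the vitamin A derivative that activates retinoic acid receptors.

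Insulin binding turns on the tyrosine kinase of its receptor, which phosphorylates the docking proteins Irs1 and Irs2. These recruit phosphoinositide 3-kinase, whose lipid product brings Akt to the membrane, and active Akt in turn keeps the Foxo transcription factors out of the nucleus. In liver this chain lowers glucose output and raises lipid synthesis. The arrays read the RNA level of these genes and not the phosphorylation by which most of the signal travels.

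With 1 pooled array in a group there is no spread between animals and no test, and all differences below are differences between those arrays. Values are log2 processed signals minus the 75th percentile of the same array, so 0 is the level of that percentile, and they compare 1 probe across arrays but not 1 probe with another. A ratio of 2 bright spots carried an error of 0.204 on the log2 scale by the scanner software's own estimate, which covers the measurement only. A difference is counted below where it reached 1.5-fold, 0.585 on the log2 scale, or 2-fold. In bulk liver RNA, fewer cells of a type and less RNA per cell cannot be told apart. HFHFr-FA lay alone on a second slide with its own scan and the other 4 arrays shared the first, so for every comparison that uses HFHFr-FA the slide and the treatment cannot be told apart.

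Between 46.7% and 49.4% of spots were well above background on each array. The 8 hepatocyte markers were above background on all 5 arrays, with a summed level of 3096 in HFHFr-FA, 4221 in HFHFr-NA, 3861 in HFHFr-N, 3150 in HFHFr-F and 3923 in the control, in units of the 75th percentile. The 6 macrophage markers were also all detected and summed to 139 in HFHFr-FA, 66.8 in HFHFr-NA, 91.2 in HFHFr-N, 143 in HFHFr-F and 75.7 in the control. The 5 cholangiocyte markers summed to 62.0 in HFHFr-F, against 8.35 to 11.2 on the other 4 arrays, and the 3 erythroid markers found on the array to 141 in HFHFr-F, against 64.9 to 95.1. Of these, 5 cholangiocyte and 2 erythroid markers were above background in HFHFr-F. A sum follows its brightest markers. The median log2 ratio of HFHFr-F to control was 1.195 over the 5 cholangiocyte markers and 0.272 over the 2 erythroid markers tested. The summed range over the 5 arrays was 9.31 to 11.8 for endothelial, 0.622 to 0.826 for T and B cell, 38.0 to 81.7 for adipocyte, 2.52 to 7.52 for pancreas and 0.171 to 0.288 for skeletal muscle markers. Only 1 of 4 adipocyte, 1 of 4 skeletal muscle and 1 or 2 of the 4 pancreas markers found were above background on an array, as were 2 or 3 of the 5 T and B cell markers. Stellate and fibroblast markers summed to 98.1 in HFHFr-FA, 90.4 in HFHFr-NA, 76.5 in HFHFr-N, 94.5 in HFHFr-F and 67.0 in the control. Their median log2 ratio was 1.52 in HFHFr-F against control, with 3 of 5 tested at least 2-fold higher, beside 8.61% of all genes in either direction. It was 1.14 in HFHFr-FA against control and -1.23 in HFHFr-N against HFHFr-F. The part of these markers in the members' values was not tested.

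Probes of 1 gene gave different values in several cases below, so some of the probes concerned are shown, 5′ to 3′ in the sense of the transcript, with the mm9 positions given in the array files. The first pair belongs to the 4 Pik3r1 probes that were all lowest in HFHFr-FA, and lies on the minus strand of chromosome 13 at chr13:102459406-102460448, a span of 1043 bases that the 60-base probe bridges, and at chr13:102456208-102456267.
Pik3r1 probe from base 1627: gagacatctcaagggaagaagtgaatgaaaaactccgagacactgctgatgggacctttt
Pik3r1 probe from base 2501: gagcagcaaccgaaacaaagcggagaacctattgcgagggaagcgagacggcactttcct

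The next probes are shown because they went against, or could not be read beside, another probe of the same gene. The Akt1 sequence is the part of the probe from the start codon on, which is in capitals, of a probe on the minus strand that spans chr12:113900509-113909775, 9267 bases of genome. The Grb10 probe on the minus strand spans chr11:11833580-11834228, and the Insr probe lies at chr8:3159473-3159532 on the minus strand.
Akt1 probe from base 281, from the start codon: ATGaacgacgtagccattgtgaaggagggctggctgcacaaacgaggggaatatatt
Grb10 probe from base 1886: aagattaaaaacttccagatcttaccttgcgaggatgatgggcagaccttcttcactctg
Insr probe from base 4038: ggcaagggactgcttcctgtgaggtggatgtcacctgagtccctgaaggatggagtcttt

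The last pair belongs to the forkhead genes. The Foxo1 probe lies at chr3:52150183-52150242 on the plus strand. The 1 probe that the files name Foxo3 lies at chr14:52538531-52538590 on the plus strand, and the files' own description of it is tubulin polymerization-promoting protein family member 2, a different gene.
Foxo1 probe from base 2271: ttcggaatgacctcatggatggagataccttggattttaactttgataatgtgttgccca
Probe named Foxo3, from base 209: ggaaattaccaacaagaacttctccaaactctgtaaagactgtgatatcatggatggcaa

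Foxo3, the forkhead relative of Foxo1, therefore has no value here. The probe carrying its name was below background on all 5 arrays. The 2 probes under its older name Foxo3a, at chr10:41905752-41905811 and chr10:41900547-41900606 on the minus strand, were below background on all 5 arrays too. Of the 20 probes found by name, 15 were well above background on every array and 3 on none.

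**Figure D1:**
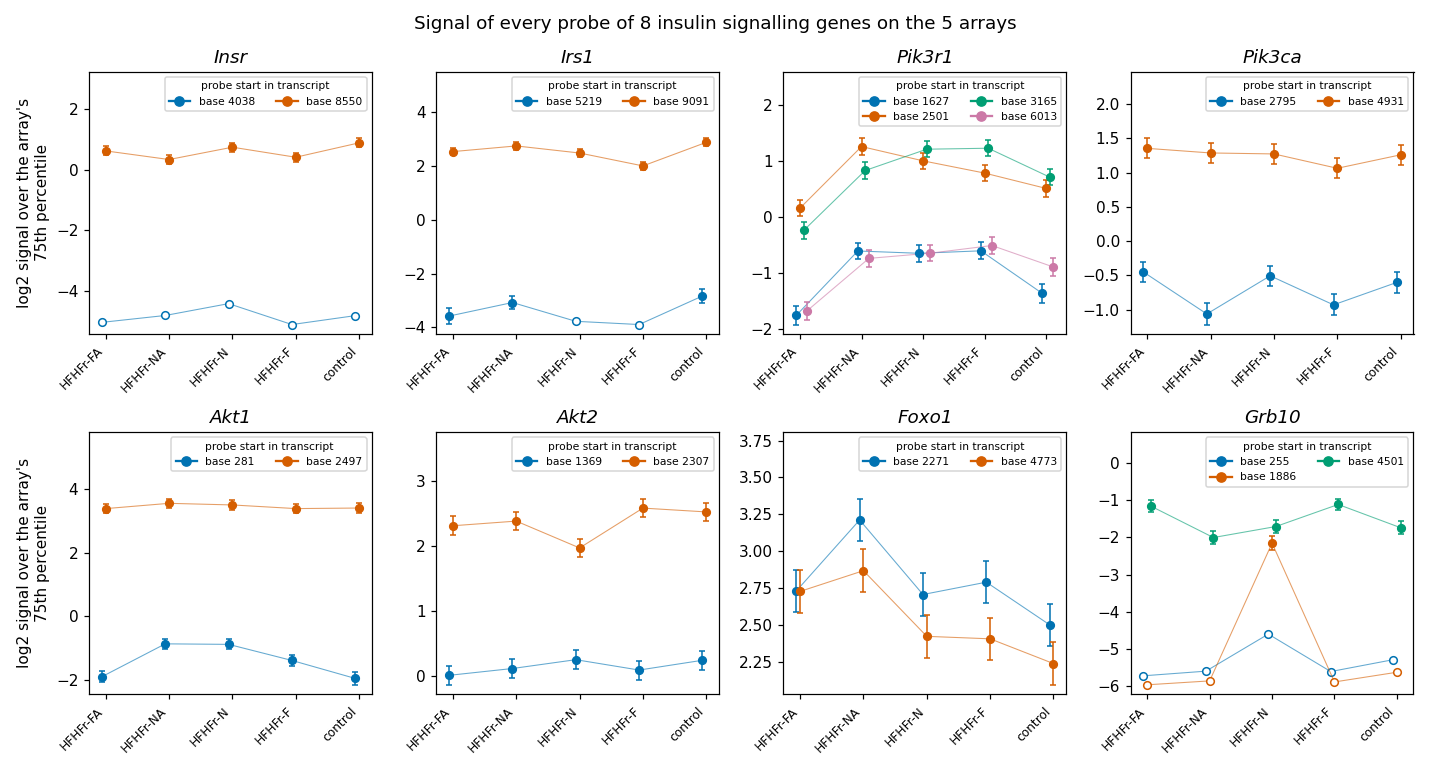
Level of every probe of the 8 measured genes on the 5 arrays, as log2 signal after subtraction of the 75th percentile (vertical axis), with HFHFr-FA, HFHFr-NA, HFHFr-N, HFHFr-F and control from left to right. Bars are the scanner software's error, and filled points were well above background while open points were not; the 4 Pik3r1 probes all have their lowest point in HFHFr-FA, while the bright Akt1 probe stays between 3.38 and 3.55.

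The receptor gene Insr was lowest in HFHFr-NA and highest in the control. Its level was 0.62 in HFHFr-FA, 0.34 in HFHFr-NA, 0.75 in HFHFr-N, 0.42 in HFHFr-F and 0.89 in the control, by the probe from base 8550 (chr8:3151667-3151726). The whole spread was 0.55 on the log2 scale, and 1 gap between neighbours in the order of the groups, that of HFHFr-FA over HFHFr-F, passed the software error, by 0.209 against 0.205. All 4 groups that had eaten the HFHFr diet were below the control, with log2 ratios that ran between -0.14 in HFHFr-N and -0.55 in HFHFr-NA, and none reached 1.5-fold. The Insr probe from base 4038 was below background on all 5 arrays and gave no second reading.

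Irs1, the docking protein that passes the signal from the receptor to phosphoinositide 3-kinase, was lowest under the continued HFHFr diet. Its level was 2.54 in HFHFr-FA, 2.75 in HFHFr-NA, 2.48 in HFHFr-N, 2.003 in HFHFr-F and 2.88 in the control, by the probe from base 9091 (chr1:82229692-82229751 on the minus strand). HFHFr-F stood apart at the bottom, 0.48 under HFHFr-N, and the control and HFHFr-NA, at the top, differed by less than the software error. The ratio of HFHFr-F to control was -0.88 ± 0.204 (software error, 1 array each), a 1.84-fold lower level. HFHFr-FA exceeded HFHFr-F by 0.53, HFHFr-N exceeded HFHFr-F by 0.48 and HFHFr-NA exceeded HFHFr-N by 0.26, all short of 1.5-fold.

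The second Irs1 probe, from base 5219 (chr1:82233564-82233623), was dim. It was well above background in HFHFr-FA at -3.58, in HFHFr-NA at -3.08 and in the control at -2.83, and not in HFHFr-N or HFHFr-F. Because HFHFr-F was not well above background, its ratio to control is a bound, at least 1.91-fold lower, and that of HFHFr-N to control is likewise at least 1.81-fold lower. Both bounds rest on 1 dim control spot with a software error of 16.9%, which they do not include. With the bright probe, both readings of Irs1 in HFHFr-F were below the control. In HFHFr-N against control the 2 probes gave -0.40 and a bound of -0.86.

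Pik3r1 encodes the p85-alpha regulatory subunit and its shorter isoforms, which tether phosphoinositide 3-kinase to the docking proteins and hold its catalytic subunit stable. By the brightest probe of each gene it showed the largest difference of the 8 measured members, a low level in HFHFr-FA. The probe from base 3165 (chr13:102454406-102454465) read -0.24 in HFHFr-FA, 0.83 in HFHFr-NA, 1.22 in HFHFr-N, 1.23 in HFHFr-F and 0.72 in the control. From base 2501 the signal was 0.16 in HFHFr-FA, 1.26 in HFHFr-NA, 1.01 in HFHFr-N, 0.79 in HFHFr-F and 0.51 in the control. HFHFr-FA was the lowest of the 5 arrays on both.

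The other pair of Pik3r1 probes gave the same lowest array. From base 1627 the signal was -1.75 in HFHFr-FA, -0.60 in HFHFr-NA, -0.65 in HFHFr-N, -0.60 in HFHFr-F and -1.36 in the control. From base 6013 (chr13:102451558-102451617) it was -1.67 in HFHFr-FA, -0.74 in HFHFr-NA, -0.64 in HFHFr-N, -0.51 in HFHFr-F and -0.89 in the control. Each of the 4 probes lists the same 2 RefSeq transcripts in the files, so by that annotation they are repeat readings and do not separate the isoforms.

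For HFHFr-FA against HFHFr-F the 4 Pik3r1 probes gave log2 ratios from -1.47 to -0.63, with a mean of -1.10 ± 0.35 (SD over the 4 probes). For HFHFr-FA against control they gave -0.95 to -0.35, with a mean of -0.62 ± 0.29. The other 3 groups lay on the opposite side of the control. All 4 probes were higher than in control in HFHFr-NA, by 0.12 to 0.76, in HFHFr-N, by 0.25 to 0.72, and in HFHFr-F, by 0.27 to 0.76. In HFHFr-NA against HFHFr-N the probes split, 2 higher and 2 lower, with a mean of -0.04 ± 0.27. The low Pik3r1 values thus came from the array on the second slide. The cholangiocyte sum of 11.2 in HFHFr-FA against 62.0 in HFHFr-F and the erythroid sum of 64.9 against 141 moved the same way in that comparison. The median log2 ratios of these markers there were -0.93 and -0.82, and their part in the result was not tested.

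The genes whose profile over the 5 arrays was most like that of Pik3r1, by root mean square difference of gene-centred log2 values among 11000 named genes detected on all arrays, were Ccng1 at 0.111, Slc26a2 at 0.125 and Cenpp at 0.127. Ccng1 encodes cyclin G1 and Slc26a2 a sulfate transporter. Ccng1 read 1.19 in HFHFr-FA, 2.01 in HFHFr-NA, 2.33 in HFHFr-N, 2.40 in HFHFr-F and 1.89 in the control. It was picked for likeness to the brightest Pik3r1 probe on these same arrays, so sharing the lowest array is no separate result.

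Pik3ca, the p110-alpha catalytic subunit that makes the lipid signal, varied little by its bright probe. That probe carries the gene's name but no RefSeq transcript in the array annotation, while the dimmer probe lists 1 and spread over 0.61. By the probe from base 4931 (chr3:32363272-32363331 on the plus strand) its level was 1.35 in HFHFr-FA, 1.29 in HFHFr-NA, 1.27 in HFHFr-N, 1.06 in HFHFr-F and 1.26 in the control. No gap between neighbouring groups passed the software error. The dimmer probe from base 2795 (chr3:32360630-32360689) read -0.45 in HFHFr-FA, -1.06 in HFHFr-NA, -0.51 in HFHFr-N, -0.93 in HFHFr-F and -0.60 in the control. Both probes put HFHFr-FA above HFHFr-F, by 0.29 and 0.48, but for HFHFr-NA against HFHFr-N they differed, at 0.01 and -0.56.

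Akt1, a protein kinase of the pathway present in most tissues, was the steadiest member by its bright probe. It starts at base 2497 (chr12:113892079-113892138 on the minus strand), sits in 10 spots and read 3.38 in HFHFr-FA, 3.55 in HFHFr-NA, 3.50 in HFHFr-N, 3.38 in HFHFr-F and 3.40 in the control. The spread of 0.166 was exceeded or matched by 98.3% of the 13132 genes detected on all arrays. Only 245 of the 41174 probes sit in 10 spots, and averaging over spots can narrow a spread, so this rank is not a like comparison. The largest ratio to control, 0.15 in HFHFr-NA, was below the software error of 0.204, which was not reduced for the 10 spots. The scatter of those spots within each array gave this ratio a smaller standard error, 0.0154, which covers no other difference between arrays.

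The Akt1 probe that reads from the start codon did not follow. From base 281 it read -1.90 in HFHFr-FA, -0.87 in HFHFr-NA, -0.88 in HFHFr-N, -1.39 in HFHFr-F and -1.95 in the control. On this probe HFHFr-NA was 1.09 above the control, where the bright probe gave 0.15, and HFHFr-N was 1.07 above it, where the bright probe gave 0.10. These 2 readings of the same gene disagree by more than their errors, and the cause was not tested.

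Akt2, the isoform that mediates most of insulin's effect on hepatic glucose and lipid handling, was lowest in HFHFr-N by its bright probe. That probe, from base 2307 (chr7:28423859-28423918 on the plus strand) read 2.32 in HFHFr-FA, 2.39 in HFHFr-NA, 1.97 in HFHFr-N, 2.59 in HFHFr-F and 2.53 in the control. HFHFr-N against HFHFr-F came to -0.61, past 1.5-fold. A second, from base 1369 (chr7:28421973-28422113), gave 0.16 for the same pair and read 0.01 in HFHFr-FA, 0.12 in HFHFr-NA, 0.25 in HFHFr-N, 0.09 in HFHFr-F and 0.25 in the control. The difference thus rests on 1 probe of 2.

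Foxo1, the forkhead factor that drives gluconeogenic genes when insulin is low, was highest in HFHFr-NA on both of its probes. The probe from base 2271 read 2.73 in HFHFr-FA, 3.21 in HFHFr-NA, 2.71 in HFHFr-N, 2.79 in HFHFr-F and 2.50 in the control. From base 4773 (chr3:52153289-52153348) the signal was 2.73 in HFHFr-FA, 2.87 in HFHFr-NA, 2.42 in HFHFr-N, 2.40 in HFHFr-F and 2.24 in the control. HFHFr-NA exceeded the control by 0.71 and 0.63 and exceeded HFHFr-N by 0.51 and 0.45. For HFHFr-FA against HFHFr-F the probes gave -0.06 and 0.32. All 4 groups that had eaten the HFHFr diet were above the control on both probes.

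Grb10, an adaptor that binds the activated receptor and restrains its signal, was higher in the 2 groups kept on the HFHFr diet. The probe from base 4501 (chr11:11830965-11831024 on the minus strand) read -1.16 in HFHFr-FA, -2.002 in HFHFr-NA, -1.71 in HFHFr-N, -1.11 in HFHFr-F and -1.74 in the control. HFHFr-F exceeded the control by 0.63 ± 0.23 (software error) and HFHFr-FA exceeded it by 0.58, just short of 1.5-fold. The arrays fell into a higher pair and a lower trio, with 0.55 between HFHFr-FA and HFHFr-N.

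The Grb10 probe from base 1886 was well above background on 1 array of the 5, HFHFr-N, at -2.15. Against the detection limit this is at least 3.06-fold over HFHFr-F and at least 2.60-fold over the control. Both bounds rest on 1 spot with a software error of 12.7%, which they do not include. The probe from base 4501 gave HFHFr-N 0.03 over control and -0.59 against HFHFr-F. Of the 44 spots around that probe on the HFHFr-N array, 1 was also at least 4-fold above all other arrays, against 0.159% of all spots. The remaining Grb10 probe, from base 255, was below background on all 5.

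**Figure D2:**
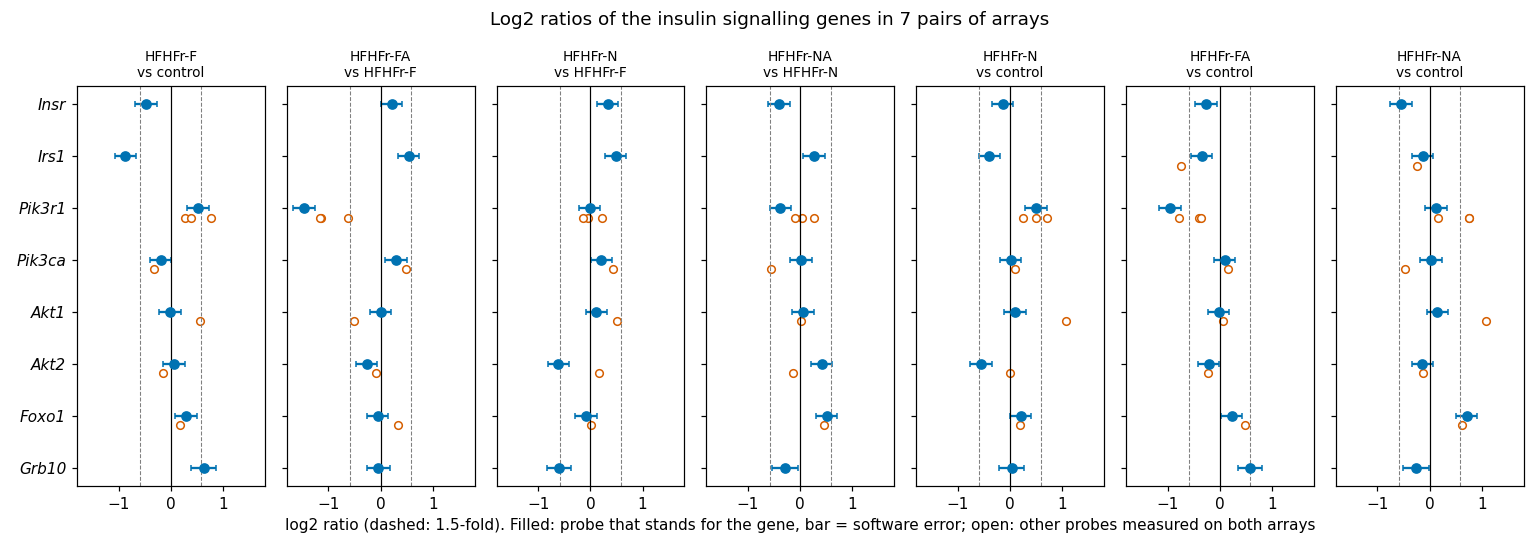
Log2 ratios of the 8 measured genes (horizontal axis) in the 7 comparisons, with dashed lines at 1.5-fold. Filled points are the probe that stands for the gene, with the scanner software's error as a bar, and open points are other probes measured on both arrays; Pik3r1 in HFHFr-FA against HFHFr-F is the only filled point past 2-fold, at -1.47.

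Counted by the brightest probe of each gene, between 0 and 2 of the 8 measured members reached 1.5-fold in a comparison. The continued HFHFr diet against control (HFHFr-F against control) gave 2 of 8 at 1.5-fold, Grb10 higher and Irs1 lower, where 23.3% of the 14631 genes tested reached it. The median of the 8 was 0.02, against -0.08 over all genes. Retinoic acid during the HFHFr diet (HFHFr-FA against HFHFr-F) gave 1 of 8, Pik3r1 lower, where 18.6% of genes reached 1.5-fold, and it was also past 2-fold, as were 5.59% of genes. Return to normal diet (HFHFr-N against HFHFr-F) gave 2 of 8, Akt2 and Grb10 lower, beside 18.3% of genes.

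Retinoic acid during the normal diet (HFHFr-NA against HFHFr-N) gave 0 of 8, beside 11.3% of genes. Against control, HFHFr-N gave 0 of 8 beside 8.02%, HFHFr-FA gave 1 of 8, Pik3r1 lower, beside 20.0%, and HFHFr-NA gave 1 of 8, Foxo1 higher, beside 14.3%. At 2-fold no member was counted outside HFHFr-FA against HFHFr-F. The share of all genes at 2-fold was 8.61% in HFHFr-F against control, 5.78% in HFHFr-N against HFHFr-F and 2.84% in HFHFr-NA against HFHFr-N. Against control it was 1.98% in HFHFr-N, 6.41% in HFHFr-FA and 3.44% in HFHFr-NA. With 8 genes, each of these shares lies near that of all genes, and the comparisons share arrays, so the same level enters several of them.

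**Figure D3:**
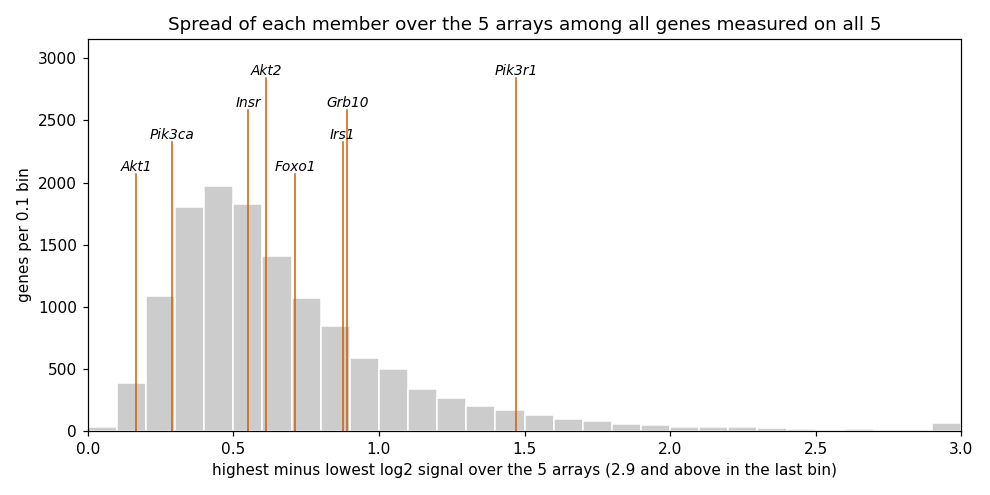
Highest minus lowest log2 level over the 5 arrays (horizontal axis) for the 13132 genes well above background on all of them, as a histogram (vertical axis, number of genes), with the 8 measured members as marked lines. Akt1 at 0.166 and Pik3ca at 0.291 lie left of the median of 0.567, and Pik3r1 at 1.47 lies in the right tail.

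By the brightest probe of each gene, Pik3r1 varied most of the 8 members and Akt1 least. The spread over the 5 arrays was 1.47 for Pik3r1, which 5.22% of genes matched or exceeded, 0.891 for Grb10 with 21.0%, 0.876 for Irs1 with 21.8% and 0.712 for Foxo1 with 34.0%. Akt2 at 0.613 and Insr at 0.55 lay near the median of 0.567. Over the 4 arrays of the first slide alone, the spread of Pik3r1 was 0.517, which 44.1% of genes matched or exceeded, while those of Grb10 and Irs1 stayed at 0.891 and 0.876. Of the 32 gaps between neighbouring groups in the order of the 8 genes, 10 passed the software error. For Akt1, read in 10 spots, that error was not reduced for the number of spots, while averaging over them can narrow its spread.

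**Figure D4:**
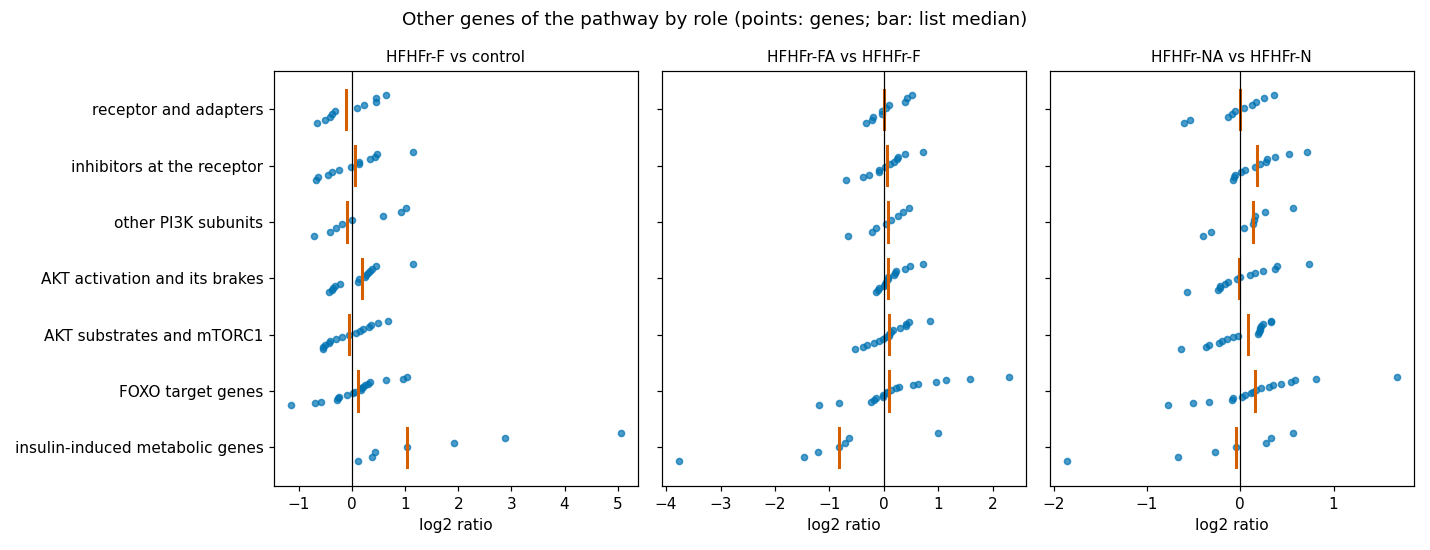
Log2 ratios of other genes of the pathway (horizontal axis), 1 point a gene, in 7 lists by role, in 3 panels (HFHFr-F against control, then HFHFr-FA against HFHFr-F, then HFHFr-NA against HFHFr-N), each with its own horizontal scale and a bar at each list's median. The insulin-induced metabolic genes lie to the right in the first panel, with a median of 1.04, and to the left in the second, with a median of -0.82.

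Around these members, 91 other genes of the pathway were found by name. In HFHFr-F against control, 13 were at least 1.5-fold higher and 6 lower of 84 tested, 22.6% in all beside the 23.3% over all genes. At 2-fold the share was 10.7% beside 8.61%. In HFHFr-FA against HFHFr-F, 9 were higher and 10 lower of 85, and in HFHFr-NA against HFHFr-N 5 were higher and 5 lower. Those shares, 22.4% and 11.8%, also lay near the 18.6% and 11.3% over all genes. In HFHFr-N against HFHFr-F the share was 18.8%, 3 higher and 13 lower, beside 18.3%. Against control it was 12.9% in HFHFr-N beside 8.02%, 20.0% in HFHFr-FA beside 20.0% and 14.1% in HFHFr-NA beside 14.3%. At 2-fold HFHFr-N gave 7.06% against control beside 1.98% and 10.6% against HFHFr-F beside 5.78%. HFHFr-FA gave 8.24% against HFHFr-F beside 5.59% and 9.41% against control beside 6.41%. HFHFr-NA gave 2.35% against HFHFr-N beside 2.84% and 2.35% against control beside 3.44%.

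At the level of the receptor, no list median passed 0.2 in size. Of 12 measured inhibitors, Dok1, a docking protein that restrains receptor tyrosine kinases, was 1.15 higher in HFHFr-F than in control. Ceacam1, which promotes hepatic insulin clearance, had a log2 ratio of -0.67 there, and Grb14, an adaptor related to Grb10, one of -0.64. Socs3, a cytokine-induced inhibitor of the receptor and its docking proteins, was higher with retinoic acid on both diets, by 0.72 in HFHFr-FA against HFHFr-F and by 0.71 in HFHFr-NA against HFHFr-N.

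Among other phosphoinositide 3-kinase subunits, Pik3cd, the catalytic subunit typical of leukocytes, read 0.31 in HFHFr-FA, -0.66 in HFHFr-NA, -0.79 in HFHFr-N, -0.15 in HFHFr-F and -1.17 in the control. It was 1.48 higher in HFHFr-FA than in control and 1.02 higher in HFHFr-F. Inpp5d, the blood-cell phosphatase that removes the lipid signal, was 1.19 higher in HFHFr-FA and 1.15 higher in HFHFr-F than in control. The macrophage marker sum was 139 in HFHFr-FA and 143 in HFHFr-F, against 75.7 in the control, and its part in these values was not tested. Pik3r3, a regulatory subunit related to Pik3r1, was 0.93 higher in HFHFr-F than in control. It had a log2 ratio of -0.65 in HFHFr-FA against HFHFr-F and one of -1.02 in HFHFr-N against HFHFr-F.

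Pdpk1, the kinase that activates Akt, was 0.73 higher in HFHFr-NA than in HFHFr-N. Downstream of Akt lie genes that FOXO factors control. Of 18 tested, 5 were at least 1.5-fold higher and 2 lower in HFHFr-FA against HFHFr-F, beside 18.6% of all genes in either direction. Their median was 0.095. In HFHFr-NA against HFHFr-N, 3 were higher and 1 lower, beside 11.3% of all genes, with a median of 0.152. Igfbp1, a secreted IGF-binding protein that insulin represses, read 8.90 in HFHFr-FA, 6.45 in HFHFr-NA, 4.77 in HFHFr-N, 6.60 in HFHFr-F and 6.26 in the control. With retinoic acid it was 2.30 higher in HFHFr-FA than in HFHFr-F and 1.68 higher in HFHFr-NA than in HFHFr-N. Pdk4, which spares glucose by inhibiting pyruvate dehydrogenase, was 1.58 higher in HFHFr-FA than in HFHFr-F and 0.43 higher in HFHFr-NA than in HFHFr-N, and had a ratio of -2.32 in HFHFr-N against HFHFr-F. Bcl6, a transcriptional repressor, went the other way with retinoic acid on the HFHFr diet, at -1.20, and read 0.54 in HFHFr-NA against HFHFr-N. Gadd45a, a stress-response gene, had ratios of -0.83 in HFHFr-FA against HFHFr-F and -0.77 in HFHFr-NA against HFHFr-N.

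Among the 7 pathway lists, the genes that insulin induces in liver had the median farthest from 0 in HFHFr-F against control. The same held in HFHFr-FA and in HFHFr-N, each against HFHFr-F. In HFHFr-F against control 4 of 7 measured were at least 1.5-fold higher and none lower, beside 23.3% of all genes in either direction. The median was 1.04 beside -0.08 over all genes. Srebf1, the regulator of fatty acid synthesis, was 1.93 higher and Thrsp, a lipogenic protein, 5.06 higher. In HFHFr-FA against HFHFr-F, 6 of the 7 were at least 1.5-fold lower and 1 higher, beside 18.6% of all genes in either direction. The median was -0.82 beside 0.03 over all genes. Srebf1 had a log2 ratio of -1.20 and Thrsp one of -3.77. In HFHFr-N against HFHFr-F, with no retinoic acid, the list was also lower, with a median of -1.24 beside 0.10 over all genes. There 5 of the 7 were at least 1.5-fold lower and none higher, beside 18.3% of all genes. Thrsp had a ratio of -3.36 in that comparison and Srebf1 one of -0.20.

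Between the 2 normal diet groups the median of the same list was close to 0. In HFHFr-NA against HFHFr-N, 2 of 7 were at least 1.5-fold lower and none higher, beside 11.3% of all genes, with a median of -0.05. Srebf1 read 4.30 in HFHFr-FA, 4.62 in HFHFr-NA, 5.30 in HFHFr-N, 5.50 in HFHFr-F and 3.57 in the control, which gives -0.67 for HFHFr-NA against HFHFr-N. Whether the list differed between the 2 retinoic acid comparisons was not tested.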

How the data were processed

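Per the labels and file headers, liver RNA pooled from 5 mice was labelled with Cy3 and hybridised to 1 Agilent array a group, and Feature Extraction 10.5.1.1 made the deposited processed intensity (background-subtracted, not scaled between arrays), its error and its flags. The authors' deposited value table holds the same signals as a linear ratio to 1 constant per array, whose choice no source used here gives; its column medians ran between 0.0675 and 0.0744, it is not centred by gene and rises with the signal. From the intensity, log2 values were taken minus each array's 75th percentile, control and outlier spots were left out, spots of a probe were averaged, and the brightest probe stood for a gene. A gene was tested where either array was well above background; the dim side gives a bound. No p-value was computed, and the number of arrays limits the precision. Symbols were updated through RefSeq accessions for 24844 probes, and 16330 kept the file name. The members and lists were chosen with earlier results of these data known. Named genes are all members, up to 3 genes a list and comparison with the largest ratio of at least 1.5-fold, and the 3 nearest profiles of a member spanning at least 1.0. One gene that this rule names is not reported here. Endothelial, stellate, lymphocyte, adipocyte, pancreas and muscle marker lists were summed too. Alternatives used limma 3.58.1 (R 4.3.3); the ratio script, in Python 3.11.15, was tested on simulated data.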

Additional observations from a re-analysis of the deposited data

Results flagged for a closer look

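Insr moved in opposite directions in the 2 retinoic acid comparisons, 0.21 in HFHFr-FA against HFHFr-F and -0.41 in HFHFr-NA against HFHFr-N on the log2 scale. Akt2 did likewise, with -0.27 in HFHFr-FA against HFHFr-F and 0.41 in HFHFr-NA against HFHFr-N by its bright probe, while its second probe gave -0.08 and -0.14. With 1 array a group neither difference was tested. The 0.21 of Insr was close to its software error of 0.205 and ran from 0.11 to 0.24 over the processing settings. HFHFr-FA also lay on the second slide. The Grb10 probe from base 1886, which stands for no gene value, was well above background in HFHFr-N alone, at -2.15, and not in the control.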

How the results depend on the processing

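No paired analysis was possible because each group is 1 pooled array, and for the same reason no array could be left out of a group. The 56 member ratios were computed under 6 alternatives. Of the 7 at 1.5-fold, all 42 alternative values kept their sign and 39 stayed at 1.5-fold. The exceptions with normexp and quantile were Grb10, 0.41 for HFHFr-F against control and -0.42 for HFHFr-N against HFHFr-F. With the mean of its probes, Akt2 gave -0.23 for HFHFr-N against HFHFr-F. Not every alternative could move a ratio. The deposited values, median scaling and the 75th percentile of detected probes differ from the main values by 1 constant per array. Each of them shifts all ratios by the brightest probe in a comparison alike. The mean of probes left these Irs1 and Grb10 ratios unchanged, as only 1 probe was measured on both arrays. The member count in HFHFr-F against control, 2 in the main setting, became 1 with normexp and quantile and 3 with cyclic loess, where Pik3r1 reached 0.62. It became 1 in HFHFr-N against HFHFr-F with normexp or the mean of probes, and 1 in HFHFr-N against control with median scaling. It became 2 in HFHFr-FA against control with cyclic loess or the 75th percentile of detected probes, and 2 in HFHFr-NA against control with median scaling or the mean of probes. These counts and the spread without the second slide were added after seeing the data. Cyclic loess moved the median of all genes in HFHFr-F against control to 0.02, against -0.08 in the main setting, and in HFHFr-N against HFHFr-F to -0.01, against 0.10.

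The counts over all genes moved more. Taken in turn for HFHFr-F (against control), HFHFr-FA and HFHFr-N (each against HFHFr-F), HFHFr-NA (against HFHFr-N), then HFHFr-N, HFHFr-FA and HFHFr-NA (each against control), the counts at 1.5-fold were 3416, 2780, 2708, 1688, 1164, 2959 and 2103. With normexp and quantile they were 1558, 1151, 1031, 485, 331, 1146 and 697, and with no detection filter 6606, 5728, 5967, 4937, 4260, 6156 and 5332. At 2-fold they were 1259, 834, 855, 422, 287, 949 and 507, with normexp 474, 287, 268, 93, 79, 264 and 126, and with no filter 3121, 2470, 2731, 2110, 1845, 2746 and 2244. Over genes detected on all 5 arrays, fewer genes were tested: 560 reached 2-fold in HFHFr-N against HFHFr-F and 298 in HFHFr-NA against control, 220 reached 2-fold and 1109 reached 1.5-fold in HFHFr-NA against HFHFr-N, and 167 and 760 in HFHFr-N against control. Dim probes limit Irs1 and Grb10, and Foxo3 was below background.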
